A study of Mus musculus with 6 samples.

Results

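The vacuolar proton pump (V-ATPase) was examined through 10 of its genes in bone marrow-derived macrophages (BMDMs) of WT and PYK2 KO mice. The genes were chosen by symbol as rows of the count table, out of 55291 genes listed. The rule used no measured value, but earlier results of these data were known when it was written. They encode 5 subunits of the membrane part (Atp6v0b, Atp6v0c, Atp6v0d1, Atp6v0d2 and Atp6v0e), 4 subunits of the cytosolic part (Atp6v1a, Atp6v1b2, Atp6v1e1 and Atp6v1h) and the accessory protein Atp6ap1. All 10 had counts in each of the 6 libraries and passed the filter on low counts.

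The V-ATPase is a rotary enzyme. Its cytosolic part, V1, hydrolyses ATP and turns a central stalk, and the stalk drives a ring of proteolipid subunits in the membrane part, V0, which carries protons into the lumen. In macrophages the pump acidifies endosomes, phagosomes and lysosomes, and lysosomal proteases and receptor breakdown depend on that acidity. Several subunits come in isoforms made from separate genes, some widespread and some restricted to cells such as osteoclasts or acid-secreting cells of the kidney. Transcript levels do not report how much of the pump is assembled or how acidic the lumen is.

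BMDMs are macrophages cultured from bone marrow cells, here with L929-conditioned medium as the source of M-CSF and no IL-4 named in the labels. Both groups were C57BL/6, and RNA was taken on day 7 from 3 WT mice (numbered 1, 5 and 6) and 3 PYK2 KO mice (numbered 2, 3 and 4), 1 library per mouse. The PYK2 KO mice lacked the kinase PYK2, encoded by Ptk2b, in the whole body and not in macrophages alone, and their age and sex were not given in the sources used here. The libraries were a bulk form of MARS-seq, which reads the 3′ end of polyadenylated transcripts, so a count was not scaled to transcript length and levels of different genes are not ranked here.

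The libraries held from 2857097 to 3917207 counts, and CPM (each gene's counts scaled to a common library size of 1e+06) were computed after TMM scaling. Ptk2b had 568 to 737 counts in WT and 64 to 71 in PYK2 KO libraries, as the labels have it. Macrophage markers were high in every library, with sums over 8 genes of 29147 to 29897 CPM for WT against 30334 to 31332 CPM for PYK2 KO, which did not overlap. Most of each sum was Lyz2 alone, at 23536 to 24430.5 CPM for WT against 24815 to 25925 CPM for PYK2 KO. All 8 markers were tested with 0 past the threshold, from a log2 fold change of -0.085 for Adgre1 (-0.040 without WT 1) to 0.21 for Mertk (0.071 without PYK2 KO 4). Of the 8, 4 were below 0 and 4 above. Lyz2 and Itgam, at 0.077 and 0.12, were higher in each PYK2 KO library than in any WT library. That pattern was found in 5.17% of tested genes. B2m, the light chain of MHC class I, had 3020 to 5102 counts in WT 1, PYK2 KO 3 and PYK2 KO 4 and 607 to 1631 in the other libraries, and no label or method gives a batch that parts them this way, so the fit was repeated without each library in turn. The summed level of 9 neutrophil and progenitor markers was 129 to 181 CPM for WT against 133 to 232 CPM for PYK2 KO libraries, with 2 of the 6 tested genes below 0 and 4 above, from -0.26 for Camp to 1.19 for Mpo. Camp ran from -0.42 to -0.020 with 1 library left out. Mpo and S100a9 were at log2 fold changes of 1.19 and 0.85 (edgeR adjusted p = 0.591 and 0.537), which ran from 0.96 to 1.71 and from 0.62 to 1.37 with 1 library left out, S100a9 being highest without WT 1. It was for 5 B cell markers 19.3 to 20.7 and 13.8 to 23.2 CPM with Cd79a, Ms4a1 and Pax5 at 0, for 5 T cell markers 4.85 to 8.68 and 4.47 to 6.42 CPM with Cd3d, Cd3e and Cd8a at 0, and for 5 dendritic cell markers 2.45 to 4.85 and 2.68 to 3.46 CPM with Flt3, Zbtb46 and Siglech at 0. Erythroid and stromal marker lists stayed at or below 2.04 CPM in each library. The part of the marker shifts and of such cells in the results was not tested.

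None of the 10 pump genes passed the test of a difference between genotypes, which does not show that their levels were equal. At an adjusted p under 0.05 in edgeR's quasi-likelihood test, 0 of 10 passed, against 25 of 9815 tested genes, or 0.255% of all. At an unadjusted p under 0.05 it was also 0 of 10, against 6.03% of all tested genes, and DESeq2, limma voom and the edgeR likelihood ratio test likewise gave 0 at both thresholds. The fitted level in PYK2 KO BMDMs ran from 81.2% of WT for Atp6v0c to 109.8% for Atp6ap1. For the 8 genes with at least 1000 counts over the 6 libraries, the 95% intervals of the log2 fold change stayed within -0.30 and 0.30. For Atp6v0c and Atp6v0d2, with 163 and 151 counts, they reached from -0.84 to 0.36, so a moderate change in either would not have been detectable at these counts.

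Summed over the 10 genes, the pump transcripts made up 3412, 3474 and 3249 CPM in WT 1, 5 and 6 and 3293, 3285 and 3297 CPM in PYK2 KO 2, 3 and 4. The WT values enclosed all 3 PYK2 KO values, and the PYK2 KO mean was 97.4% of the WT mean. As a share of all counts the genes took from 0.324% to 0.341% in WT and from 0.323% to 0.334% in PYK2 KO libraries. In bulk RNA, fewer cells of a type and less RNA per cell cannot be told apart.

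**Figure D1:**
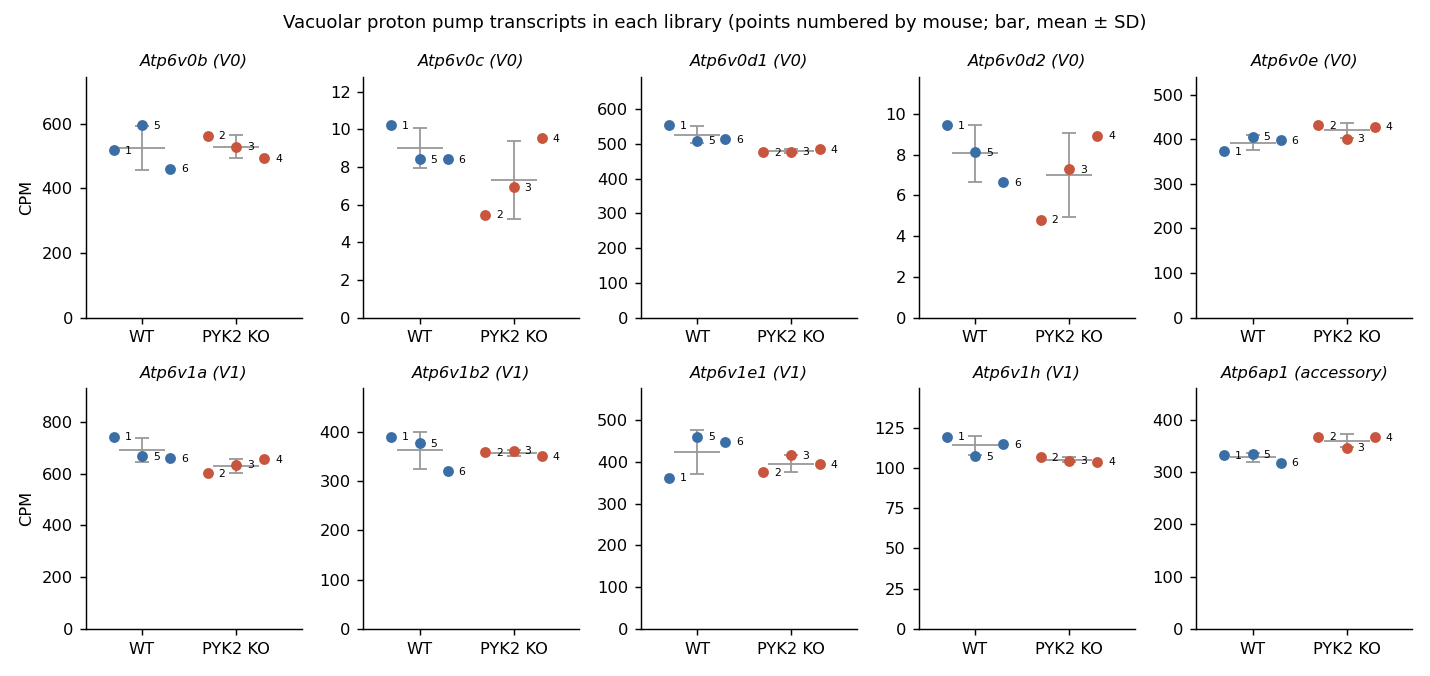
Level of each of the 10 pump genes in CPM on an axis that starts at 0, with 1 point per mouse (numbered), WT in blue and PYK2 KO in red, and the mean ± SD in grey. In 6 of the 10 panels the genotypes overlap. In the other 4 (Atp6v0d1, Atp6v1a, Atp6v1h and Atp6ap1) they lie close but apart, such as Atp6v0d1 with 510.0 to 554 CPM for WT against 477 to 486 CPM for PYK2 KO. Among all tested genes, 5.07% lay wholly lower in PYK2 KO and 5.17% wholly higher. With library totals as the only scaling, Atp6v1a and Atp6v1h overlapped.

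The proton path itself is a ring of proteolipids. Atp6v0b, which encodes the c″ proteolipid, was at 517, 595 and 460.2 CPM in WT 1, 5 and 6 and at 563, 529 and 493 CPM in PYK2 KO 2, 3 and 4. The PYK2 KO values lay inside the WT range. The means were 524 CPM in WT against 528 CPM in PYK2 KO, with a coefficient of variation of 12.9% and 6.63% (n = 3 mice each) and a log2 fold change of 0.01 (95% interval -0.19 to 0.21, edgeR adjusted p = 0.997). WT 5 and WT 6 set the spread of this gene, and its sign changed when WT 1, WT 6 or PYK2 KO 2 was left out.

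The main proteolipid, c, is encoded by Atp6v0c. It had 40, 30 and 24 counts in WT 1, 5 and 6 and 17, 20 and 32 counts in PYK2 KO 2, 3 and 4, a mean of 9.01 ± 1.05 CPM for WT against 7.31 ± 2.07 CPM for PYK2 KO (SD over 3 mice each). PYK2 KO 4 lay among the WT values and PYK2 KO 2 was lowest of all. The log2 fold change of -0.30 had a 95% interval from -0.84 to 0.24 (edgeR adjusted p = 0.935), and it moved to -0.13 without PYK2 KO 2, to -0.19 without WT 1 and to -0.55 without PYK2 KO 4. The counts of this gene are uncertain, because the last 500 bases of its transcripts share exact stretches of 50 bases with the processed pseudogenes Atp6v0c-ps1 and Atp6v0c-ps2 in GENCODE M21, and how reads that match both were handled is not given in the sources used here. The pseudogenes themselves had 1 and 17 counts over the 6 libraries, and adding them gave 41, 31 and 34 counts in WT and 23, 20 and 32 in PYK2 KO libraries. No other member shared such a stretch with a transcript of another gene in that annotation.

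The d subunit sits on top of the ring and couples it to the stalk. Of its isoforms, Atp6v0d1 is made in nearly all cells and was at 554, 510.0 and 515 CPM in WT 1, 5 and 6 and at 477, 478 and 486 CPM in PYK2 KO 2, 3 and 4. No PYK2 KO mouse reached the lowest WT mouse. The difference was small, with a PYK2 KO level 91.2% of WT (95% interval 81.4% to 102%), a log2 fold change of -0.13 (standard error 0.08) and an edgeR adjusted p of 0.896.

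Atp6v0d2, the isoform known for its abundance in osteoclasts and in some macrophages, was present at low counts. WT 1, 5 and 6 had 37, 29 and 19 counts and PYK2 KO 2, 3 and 4 had 15, 21 and 30. These were 9.45, 8.12 and 6.66 CPM for WT against 4.81, 7.27 and 8.94 CPM for PYK2 KO, and the genotypes overlapped. The log2 fold change was -0.21 (95% interval -0.79 to 0.36, edgeR adjusted p = 0.964), and it moved to -0.0045 without PYK2 KO 2, to -0.080 without WT 1 and to -0.44 without PYK2 KO 4.

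Within a library, the ratio of Atp6v0d2 to Atp6v0d1 counts is free of library size. On the log2 scale it averaged -6.04 ± 0.21 for WT against -6.14 ± 0.44 for PYK2 KO (SD over 3 mice each). The difference of -0.10 lay within the spread between mice (two-sided exact permutation test over 20 assignments, p = 0.8, where the smallest possible was 0.1). It turned to 0.14 without PYK2 KO 2, so even its sign rested on 1 library.

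Atp6v0d2 is also an osteoclast gene, and other markers of that lineage were read beside it. Of 10 osteoclast markers 6 passed the filter on low counts and 0 passed the adjusted threshold. Of the 6, 5 had a log2 fold change below 0 and 1 above. The summed level was 163 to 181 CPM for WT against 149.9 to 161 CPM for PYK2 KO libraries, which did not overlap. Ocstamp and Calcr, which mark fused osteoclasts, were at 0 in all 6 libraries, and Dcstamp and Oscar had 3 and 1 counts. Ctsk, a collagen-degrading protease of osteoclasts, had the lowest log2 fold change of that list (-0.39, unadjusted p = 0.0194, edgeR adjusted p = 0.674). It was lower in each PYK2 KO library than in any WT library, a pattern found in 5.07% of tested genes. Nfatc1, the lineage's transcription factor, had the highest log2 fold change (0.11, and 0.020 without WT 6). The part of these cells in the level of Atp6v0d2 was not tested.

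Atp6v0e, a small membrane protein of V0, stood at 374, 406 and 398 CPM in WT 1, 5 and 6 and at 432, 401 and 429 CPM in PYK2 KO 2, 3 and 4. Only PYK2 KO 3 lay within the WT range, and PYK2 KO 2 and 4 lay above it. The log2 fold change was 0.10 (95% interval -0.07 to 0.27, edgeR adjusted p = 0.935), and 0.065 without WT 1.

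The catalytic site of V1 lies on the A subunit, encoded by Atp6v1a. It was at 743, 668 and 659.6 CPM in WT 1, 5 and 6 and at 602, 634 and 655 CPM in PYK2 KO 2, 3 and 4. The genotypes did not overlap, though PYK2 KO 4 and WT 6 were 655 and 659.6 CPM and so almost touched, and with library totals as the only scaling they overlapped. The log2 fold change was -0.13 (95% interval -0.30 to 0.04, edgeR adjusted p = 0.912), and it was -0.07 without WT 1, the library with the highest value.

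Atp6v1b2 encodes the widespread isoform of the B subunit, which alternates with A in the head of V1. Its levels were 390.0, 376 and 319.7 CPM in WT 1, 5 and 6 and 358, 361 and 351 CPM in PYK2 KO 2, 3 and 4. The PYK2 KO libraries lay close together, inside the WT range, and the log2 fold change was -0.02 (95% interval -0.21 to 0.16, edgeR adjusted p = 0.994), with a sign that changed without WT 1 or WT 5. The other B isoform, Atp6v1b1, known from acid-secreting kidney cells, had 0 counts in all 6 libraries.

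The E subunit belongs to the stalks that hold V1 still. Atp6v1e1, its widespread isoform, was at 363, 461 and 449 CPM in WT 1, 5 and 6 and at 376, 416 and 396 CPM in PYK2 KO 2, 3 and 4. WT 1 was the lowest of all 6 libraries and the other WT mice the highest. Over all mice the log2 fold change was -0.10 (95% interval -0.30 to 0.11, edgeR adjusted p = 0.946), and it was -0.034 without WT 5. Without WT 1 it was -0.20 and the unadjusted p was 0.0293, the single case in which a pump gene passed that threshold, while the edgeR adjusted p was 0.690.

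Atp6v1h encodes the H subunit, which regulates the joining of V1 and V0. It had 468, 384 and 328 counts in WT 1, 5 and 6 and 333, 302 and 349 counts in PYK2 KO 2, 3 and 4, or 120, 107 and 115 CPM against 107, 105 and 104 CPM. Each PYK2 KO value lay below each WT value by a narrow margin, since WT 5 was at 107.5 and PYK2 KO 2 at 106.8 CPM. With library totals as the only scaling, its genotypes overlapped. The log2 fold change was -0.12 (95% interval -0.30 to 0.06, edgeR adjusted p = 0.932).

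The accessory protein Atp6ap1, also called Ac45, takes part in assembly and sorting of the pump. It was at 332, 334 and 318 CPM in WT 1, 5 and 6 and at 368, 346 and 367 CPM in PYK2 KO 2, 3 and 4. Here every PYK2 KO value was above every WT value, with a PYK2 KO level 109.8% of WT (95% interval 97.8% to 123%), a log2 fold change of 0.14 (standard error 0.08) and an edgeR adjusted p of 0.896.

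Taking the genes by role, all 4 V1 genes had a log2 fold change below 0, from -0.13 to -0.02, and 3 of the 5 V0 genes did, while the accessory gene was above 0. In all 7 of 10 were below 0, against 49.5% of tested genes, with a median of -0.11 against 0.00 for all tested genes. Without PYK2 KO 2 the median of the 10 was -0.051, and without any other 1 library it was between -0.12 and -0.077. Genotypes did not overlap in 4 of the 10. Of these, 3 were lower in PYK2 KO (Atp6v0d1, Atp6v1a and Atp6v1h), a pattern found in 5.07% of tested genes, and 1 was higher (Atp6ap1), a pattern found in 5.17%. With library totals as the only scaling it was 3 of the 10, with 1 lower in PYK2 KO (Atp6v0d1) and 2 higher (Atp6v0e and Atp6ap1). Summed, the V1 genes were at 1543 to 1615 CPM for WT against 1443 to 1516 CPM for PYK2 KO libraries, which did not overlap, and V0 genes at 1388 to 1528 and 1422 to 1482 CPM, which did. These genes share libraries and the same scaling, so their directions are not independent of each other.

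**Figure D2:**
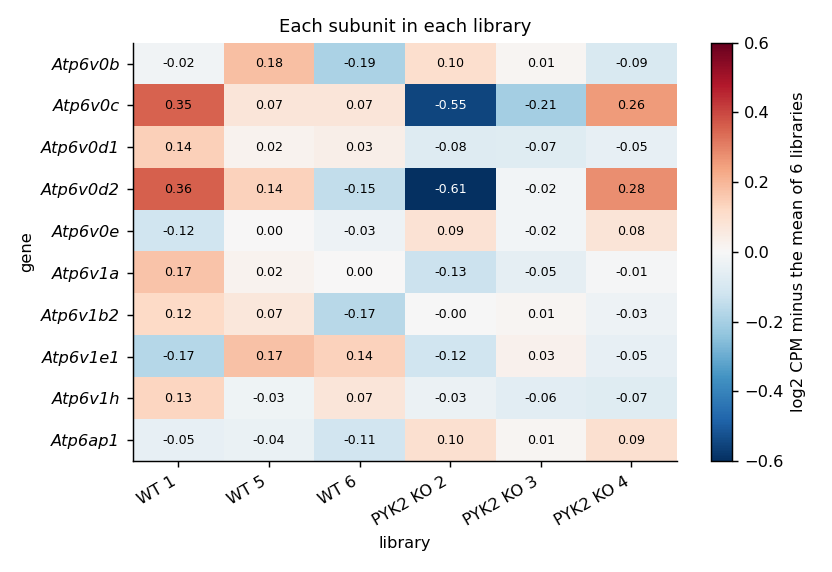
Log2 CPM of each pump gene (rows) in each library (columns) minus the mean of that gene over the 6 libraries, as colour and number. Deviations beyond 0.2 occur only in the rows of Atp6v0c and Atp6v0d2, which reach -0.55 and -0.61 in PYK2 KO 2, and the other 8 rows stay between -0.19 and 0.18.

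Single libraries stood out in several genes. WT 1 had the highest value of 6 of the 10 genes and the lowest of 2 (Atp6v0e and Atp6v1e1), and PYK2 KO 2 had the lowest of 4 and the highest of 2 (Atp6v0e and Atp6ap1). WT 6 was lowest for 3 genes. The coefficient of variation within a genotype was between 1.02% and 12.9% for the 8 genes with at least 1000 counts, where counting alone gives 2.14% to 5.27%, and it was between 11.6% and 29.6% for Atp6v0c and Atp6v0d2, where counting alone gives 19.2% and 19.9%. Atp6v0c and Atp6v0d2 both had their highest value in WT 1, their lowest in PYK2 KO 2 and their second highest in PYK2 KO 4. Counting errors assume that each count is an independent molecule, which the sources used here do not state.

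The genes whose log2 CPM followed Atp6v0d2 most closely over the 6 libraries were Dstyk, Plpbp, Micu2, Erbin and Sp140, with Pearson's r of 0.99, 0.99, 0.98, 0.98 and 0.98. For the summed pump level they were Bbc3, Nfkbil1, Gng2, Myo1f and Gmeb2, with 0.99, 0.99, 0.98, 0.98 and 0.97. These are the top 5 of all other tested genes over only 6 points that share depth and scaling, so values of this size are a description of the libraries. None of the 10 is a pump subunit.

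The 16 other subunit genes completed the picture of which pump these cells transcribe. Of them 9 passed the filter on low counts, and 0 passed the adjusted threshold in edgeR, DESeq2, limma voom or the likelihood ratio test. Their median log2 fold change was -0.09, with 7 below 0 and 2 above, and 1 of the 9 had an unadjusted p under 0.05. That gene was Atp6v0a1, an isoform of the a subunit, which forms the proton channels with the ring.

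Atp6v0a1 was at 412, 411 and 379.6 CPM in WT 1, 5 and 6 and at 369.9, 351 and 272 CPM in PYK2 KO 2, 3 and 4. Every PYK2 KO value lay below the WT values, and PYK2 KO 4 was lowest by a wide margin. The log2 fold change of -0.28 (95% interval -0.50 to -0.06, unadjusted p = 0.0171) did not pass over all tested genes (edgeR adjusted p = 0.661), and without PYK2 KO 4 it was -0.15 with an unadjusted p of 0.0984. The other a isoforms present were Atp6v0a2, at 46.4 ± 6.59 CPM for WT against 46.6 ± 2.70 CPM for PYK2 KO, and Tcirg1, the a3 isoform of lysosomes and osteoclasts, at 562 ± 18.4 and 529 ± 40.0 CPM (SD, n = 3 mice each). The log2 fold changes were 0.01, with a sign that 4 of the 6 left-out libraries turned, and -0.09, which was -0.026 without PYK2 KO 4. Atp6v0a4, the renal isoform, had 0 counts.

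Apart from Tcirg1 and Atp6v0d2, described above, the isoforms of restricted tissues were almost silent in both genotypes. Atp6v1b1, Atp6v1e2, Atp6v1g3 and Atp6v0a4 had 0 counts over all 6 libraries, which allows at most 0.152 CPM over the libraries together. Atp6v0e2 had 1 count and Atp6v1c2 had 2, and Atp6v1g2 had 34, between 4 and 7 in each library. The single-gene or widespread subunits were well covered, with 5844 counts over the 6 libraries for Atp6v1d, 6726 for Atp6v1c1, 7611 for Atp6v1g1 and 11084 for Atp6v1f, and log2 fold changes between -0.15 and -0.01 (between -0.20 and 0.040 with 1 library left out). Rnasek, a small protein that joins V0, was at -0.10 (-0.029 without WT 1). Atp6ap2, the prorenin receptor and second accessory protein, had the highest log2 fold change among the 9 tested of these 16 genes, 0.02. Together, 19 of the 26 subunit genes were tested, and 14 of the 19 had a log2 fold change below 0.

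**Figure D3:**
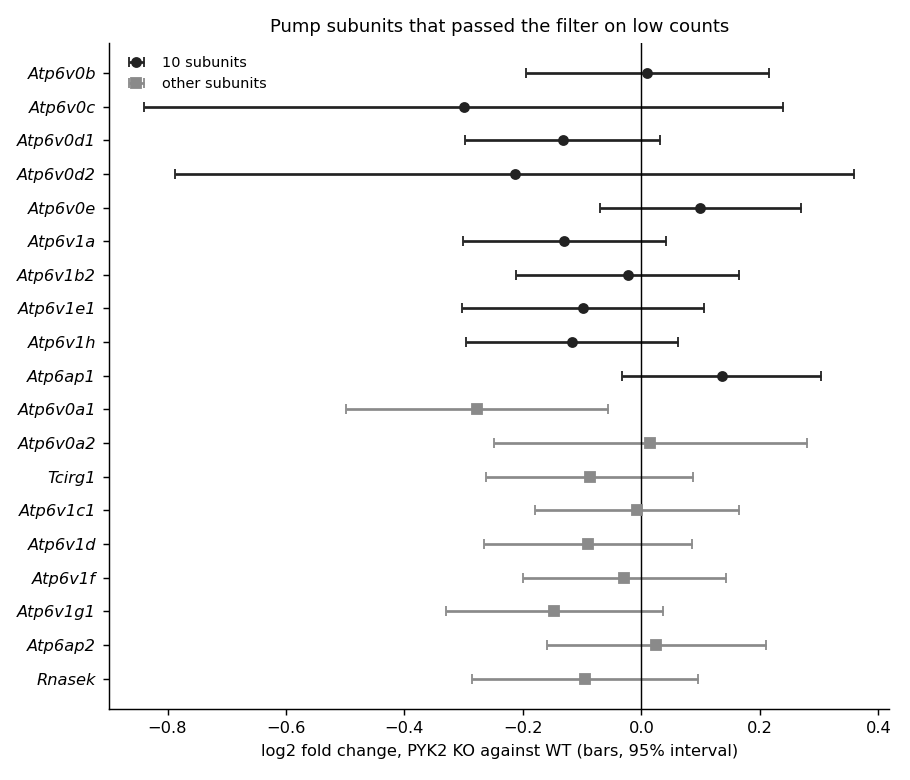
Log2 fold change of PYK2 KO against WT for the 19 subunit genes tested, with 95% intervals from the edgeR fit. The 10 genes (black circles) all have intervals that include 0, and of the other subunits (grey squares) only the interval of Atp6v0a1 does not, from -0.50 to -0.06.

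Genes that build, dock or sense the pump were compared in the same fit, and they gave 0 calls as well. Of 12 assembly genes 10 were tested, with a median log2 fold change of -0.07. The lowest was Meak7, a TLDc-domain protein of lysosomes (-0.43, edgeR adjusted p = 0.864), and the highest Ncoa7, which binds V1 (0.23, edgeR adjusted p = 0.935). Ncoa7 moved to 0.062 without PYK2 KO 4 and to 0.41 without PYK2 KO 2, and Meak7 stayed between -0.51 and -0.30.

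Among 16 genes of the Ragulator complex, which reads lysosomal amino acids through the pump, the Rag GTPases and the MiT/TFE transcription factors, 15 were tested, and their log2 fold changes had the median -0.0049. Flcn alone had an unadjusted p under 0.05. It encodes the Rag regulator folliculin and was at 109 ± 8.33 CPM for WT against 92.4 ± 1.01 CPM for PYK2 KO (SD over 3 mice each), with a log2 fold change of -0.25 (edgeR adjusted p = 0.617). Its partner Fnip1 was the lowest of that list at -0.36, and Rragd the highest at 0.22. With 1 library left out Fnip1 ran from -0.51 without PYK2 KO 4 to -0.16 without PYK2 KO 2, and Rragd from -0.0013 without WT 6 to 0.37 without WT 1.

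MiT/TFE factors are known to switch on lysosomal genes, many pump subunits included, through an E-box motif of the letters CACGTG. Their transcripts were at 65.7 ± 9.43 and 58.2 ± 1.57 CPM for Tfeb, 133 ± 3.59 and 148 ± 2.98 CPM for Tfe3, and 29.3 ± 1.66 and 32.5 ± 5.76 CPM for Mitf, in WT and PYK2 KO (SD, n = 3 mice each). Tfe3 was higher in all 3 PYK2 KO libraries than in any WT library, with a log2 fold change of 0.15, and no factor passed the adjusted threshold (edgeR adjusted p = 0.912 for Tfeb, 0.882 for Tfe3 and 0.944 for Mitf).

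RefSeq promoter windows on GRCm38.p6 were at hand for 7 of the 10 genes (9 windows), and the 250 bases before each start were searched for CACGTG, which reads the same on both strands. Among the 7 genes, 2 held it. By window it was 2 of the 9, against 6.02% of 32851 promoter windows of that length and 8.76% of those of tested genes. The stretches that hold it are shown because they are where such a factor could be read in the sequence, each 5′ to 3′ on the gene's strand with the motif in capitals. That of Atp6v0b, at chr4:117887334-117887410 on the minus strand, holds it at 2 places, 36 and 18 bases before the start.
Atp6v0b: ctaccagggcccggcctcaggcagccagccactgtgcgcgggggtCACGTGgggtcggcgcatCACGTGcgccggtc
The stretch of Atp6v1a, at chr16:44139340-44139435 on the minus strand, holds it once, 131 bases before the RefSeq start and inside the longer gene of GENCODE M21, outside its exons. There it lies within the 8 letters TCACGTGA, which 0.785% of all these promoter windows hold, and 1.64% of those of tested genes.
Atp6v1a: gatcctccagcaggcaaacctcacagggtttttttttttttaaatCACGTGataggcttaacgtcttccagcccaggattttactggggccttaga
A match is a description of letters and no sign of binding, and the other members' windows only lack these letters in these bases. The genotype difference of the 2 genes was 0.01 for Atp6v0b and -0.13 for Atp6v1a on the log2 scale, both within the intervals given above.

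The lysosome that the pump serves was read in 12 ion channels and exchangers and in 30 hydrolases and membrane proteins, all tested. The log2 fold changes of the channel list had the median -0.07 and were lowest, at -0.21, for Tmem175, a proton-leak channel of lysosomes. Those of the lysosomal list had the median -0.05 and ran from -0.22 for the galactosidase Gla to 0.23 for the sulfatase Arsb. Tmem175 moved to -0.044 without WT 1 and to -0.34 without WT 6, and without PYK2 KO 4 Gla was at -0.083 and Arsb at 0.11. In both, 0 genes passed the adjusted threshold in edgeR, DESeq2, limma voom or the likelihood ratio test, and 0 had an unadjusted p under 0.05 in the quasi-likelihood test. Their summed levels overlapped between genotypes for the enzymes, at 47076 to 50381 CPM for WT against 45633 to 49202 CPM for PYK2 KO libraries. The channels were at 875 to 914 and 839.9 to 873 CPM, which did not. With 1 library left out the medians ran from -0.084 to -0.016 for the channels and from -0.060 to -0.011 for the lysosomal list, lowest in size without WT 5 and without PYK2 KO 4. The median of the 10 pump genes, given above with its own range, overlapped both, and whether the pump genes differed from either list was not tested.

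**Figure D4:**
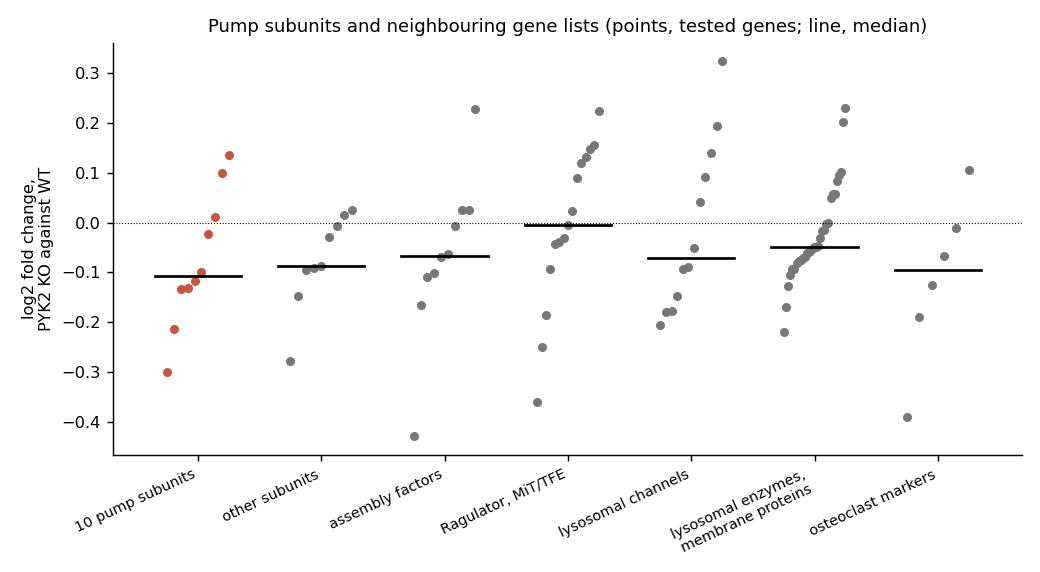
Log2 fold change of PYK2 KO against WT for each tested gene (points) of the 10 pump genes and of 6 neighbouring lists, with the median of each list as a line. All 7 medians lie between -0.11 and -0.0049, and points of each list fall on both sides of 0.

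Among all tested genes the log2 fold changes of the pump genes lay close to 0. Of the 10, 8 had at least 302 counts in each library, and Atp6v0c and Atp6v0d2, which had from 15 to 40, were the least precisely measured.

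**Figure D5:**
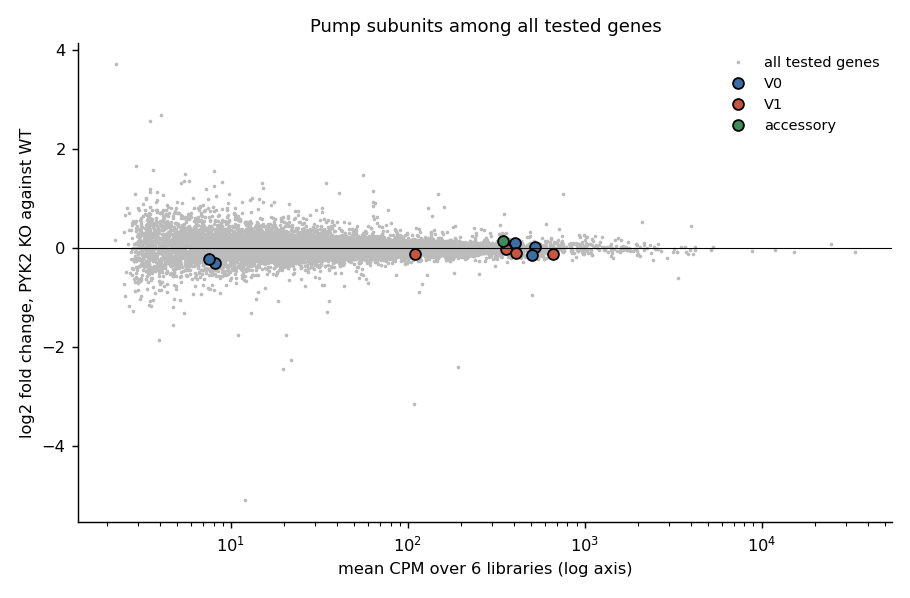
Log2 fold change of PYK2 KO against WT on the vertical axis against the mean CPM over the 6 libraries on a log axis, for all 9815 tested genes (grey) and the pump genes by part (V0 blue, V1 red, accessory green). The pump genes lie between -0.30 and 0.14, among the grey points at their level.

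The 10 genes are spread over 7 chromosomes. In GENCODE M21 (GRCm38) they lie on chromosomes 1 (Atp6v1h, 5070018 to 5162529), 4 (Atp6v0b, 117884326 to 117887333, and Atp6v0d2, 19876841 to 19922605), 6 (Atp6v1e1, 120794305 to 120822793), 8 (Atp6v0d1, 105524465 to 105566047, and Atp6v1b2, 69088646 to 69113711), 16 (Atp6v1a, 44085402 to 44139705), 17 (Atp6v0c, 24163866 to 24169702, and Atp6v0e, 26663231 to 26699647) and X (Atp6ap1, 74297097 to 74304721), and none on chromosome 14 with Ptk2b. Of the 10, 4 overlap another annotated gene, and the counts of those were low. Gm12841 on the opposite strand of Atp6v0b had 1 count, Slc18a1 beside Atp6v1b2 had 10, Slc25a18 beside Atp6v1e1 had 11, Gm25193 on the same strand as Atp6v1e1 had 0 and Rgs20 beside Atp6v1h had 0, over the 6 libraries.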

How the data were processed

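Bulk RNA-seq of BMDMs from 3 WT and 3 PYK2 KO mice was analyzed. The authors made MARS-seq libraries, used UTAP for mapping and counting, and deposited the raw counts of each gene as whole numbers, 1 column per mouse matched by name. Their processing notes name cutadapt, STAR and mm10, and the versions and the use of molecular identifiers are not given in the sources used here. Totals were 2857097 to 3917207 counts per library, the counting variation and the limit for genes at 0 cover counting error only, and the p-values and the 95% intervals of fold changes carry the spread between mice. Columns of other samples numbered 0.

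Counts were tested on genotype alone with edgeR 4.0.16 under R 4.3.3 (genes kept by filterByExpr, TMM factors over the 9815 tested genes, quasi-likelihood F test, Benjamini-Hochberg adjustment over all tested genes, threshold 0.05). Standard errors were derived from each F statistic with its fold change, and 95% intervals from them. A gene at 0 was given a limit of 3 counts over the libraries. Pearson's r used log2 of CPM plus 0.5. The test was checked on simulated counts. Alternatives were RLE size factors, library totals alone, no filter, at least 10 counts in every library, DESeq2 1.42.0, limma 3.58.1 (voom), the likelihood ratio test, and leaving out each library. Of the listed symbols, Tldc1 was found as Meak7.

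The members and lists were chosen with earlier results of these data known. Named were all members, Ptk2b, and in each other list the genes at an unadjusted p under 0.05, the lowest and highest log2 fold change, the isoforms of members and the a subunits, and the 5 genes most like Atp6v0d2 or the summed members. Some further genes of the fixed lists are named for their role, chosen after their values were seen. Some genes that this rule would name are not reported here.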

Additional observations from a re-analysis of the deposited data

How the results depend on the processing

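No paired analysis was possible because mice 1, 5 and 6 are WT and mice 2, 3 and 4 are PYK2 KO, with no number in common. The number of pump genes past the adjusted threshold was 0 under each of the 7 alternatives and each of the 6 fits that left out a library, and so was that of the 82 tested genes of the other 6 lists. Pump genes below 0 numbered 7 under the alternatives and from 6 to 8 with a library left out, and genes with genotypes that did not overlap numbered 3 with library totals alone and from 4 to 5 with a library left out. The shares of all tested genes, 5.07% lower and 5.17% higher in PYK2 KO, were counted only with all 6 libraries and TMM scaling. Groups of fewer mice separate more easily, so the counts with a library left out have no share to be read against. The number of all genes past the threshold was 159 without a filter and 45 with the likelihood ratio test, and from 14 to 34 with a library left out, with 15 without WT 5, 15 without PYK2 KO 2 and 14 without PYK2 KO 4. The cause was not tested.

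Of 338 values of the 26 named genes, 326 held both sign and call, 0 crossed the threshold and 12 turned direction, all from leaving out 1 library. Atp6v0b was -0.00053 without WT 1 and turned also without WT 6 and PYK2 KO 2 (from -0.074 to 0.11 over the 6 fits). Atp6v1b2 turned without WT 1 and WT 5 (-0.10 to 0.034). Atp6v0a2 turned without WT 1, WT 5, PYK2 KO 2 and PYK2 KO 3 (-0.047 to 0.13). Atp6ap2 turned without WT 6 and PYK2 KO 4 (-0.047 to 0.074), and Rragd without WT 6 (-0.0013 to 0.37). The log2 ratio of Atp6v0d2 to Atp6v0d1 differed by -0.09 with a pseudocount of 1 and by -0.29 to 0.14 with a library left out. The summed pump level in PYK2 KO ran from 95.6% to 98.8% of WT, and the correlations named stayed at 0.92 or above with 5 libraries. Low counts limit Atp6v0c and Atp6v0d2 most, and for Atp6v0c the handling of reads shared with its pseudogenes is also not known. With a library left out the median log2 fold change ran from -0.12 to -0.041 for the other subunits, from -0.075 to -0.040 for assembly genes and from -0.051 to 0.025 for Ragulator and MiT/TFE genes. That of osteoclast markers, -0.096 with all libraries, turned to 0.027 without PYK2 KO 4.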
